A study of Mus musculus with 3 samples.

Results

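Ligands of the TNF superfamily and the receptors they bind were followed in the cytosolic RNA of mouse macrophages. The 10 genes were taken by symbol from the annotation of the deposited tables, out of 55536 genes. They comprise 7 ligands (Tnf, Lta, Ltb, Tnfsf9, Tnfsf12, Tnfsf13b and Tnfsf14) and 3 receptors (Tnfrsf1a, Tnfrsf1b and Tnfrsf9). The cells were bone marrow-derived macrophages of the C57BL/6J strain, primary cells grown from marrow. They had been given Lipid A, the portion of lipopolysaccharide that Toll-like receptor 4 senses, at 100 ng/ml and were taken after 40 minutes. Total RNA of the cytosolic fraction, depleted of ribosomal RNA, was sequenced in 3 libraries, which the labels number as biological replicates 1, 2 and 3 of 1 group. Their sample records are separate but name 1 donor record, and whether the cells came from separate animals is not given. All p-values below thus take these 3 libraries as the replicates, and part of the spread between them may be technical. The p-values also draw on the spread of other genes. Cells without Lipid A were not analysed here, so every value is a level after 40 minutes and none is a response to Lipid A. In bulk RNA, fewer expressing cells and less RNA per cell cannot be told apart.

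TNF is made as a membrane protein whose outer part is cut off by the protease ADAM17. It signals through Tnfrsf1a, which carries a death domain, and Tnfrsf1b, which does not. Lymphotoxin alpha, encoded by Lta, binds the same receptors when secreted, and forms a membrane complex with lymphotoxin beta, encoded by Ltb, that binds the lymphotoxin beta receptor. Macrophages are a main source of TNF, whereas the lymphotoxins are known mostly from lymphocytes. The Tnf message is short-lived, because AU-rich stretches in its 3′ untranslated region are bound by proteins that speed its decay.

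The promoters of Tnf, Lta and Ltb are shown because the 3 genes lie side by side on chromosome 17 and yet stood at very different levels. Ltb lies at 35194439 to 35196320 on the plus strand, Tnf at 35199381 to 35202007 and Lta at 35203165 to 35205351 on the minus strand (mouse build mm10, annotation GENCODE M21). There are 3060 bases between Ltb and Tnf and 1157 between Tnf and Lta. Their RefSeq promoters, each running from 250 bases before to 50 bases after the start site (build GRCm38.p6, the same coordinates as mm10), are printed 5′ to 3′ on the strand of the gene. Capitals mark matches to the NF-κB pattern GGGNNNNNCC on either strand and to TATAAA on either strand.

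Tnf, chr17:35201958-35202257, minus strand: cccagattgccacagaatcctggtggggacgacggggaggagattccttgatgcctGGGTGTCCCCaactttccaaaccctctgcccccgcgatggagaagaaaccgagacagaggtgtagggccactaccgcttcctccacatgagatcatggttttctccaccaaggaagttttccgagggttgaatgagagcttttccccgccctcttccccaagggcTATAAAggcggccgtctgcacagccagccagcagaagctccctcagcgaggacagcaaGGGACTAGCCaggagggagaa

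Lta, chr17:35205302-35205601, minus strand: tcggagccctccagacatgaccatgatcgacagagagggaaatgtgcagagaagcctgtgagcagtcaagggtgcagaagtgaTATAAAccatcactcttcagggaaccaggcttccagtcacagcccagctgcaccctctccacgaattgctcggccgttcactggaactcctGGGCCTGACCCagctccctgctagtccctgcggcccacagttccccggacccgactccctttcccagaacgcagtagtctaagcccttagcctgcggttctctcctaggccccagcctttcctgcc

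Ltb, chr17:35194257-35194556, plus strand: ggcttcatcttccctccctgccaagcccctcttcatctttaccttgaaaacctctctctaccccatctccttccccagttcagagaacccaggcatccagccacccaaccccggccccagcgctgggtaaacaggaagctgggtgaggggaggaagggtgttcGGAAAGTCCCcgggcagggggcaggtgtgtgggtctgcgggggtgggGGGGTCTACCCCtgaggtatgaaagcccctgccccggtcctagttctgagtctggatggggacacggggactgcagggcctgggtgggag

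The Tnf promoter held the NF-κB pattern at 2 places, from -194 to -185 and from 29 to 38 relative to the start site, and TATAAA from -29 to -24. The Lta promoter held the pattern in 2 overlapping matches between -76 and -66, and TATAAA farther out, from -167 to -162. The Ltb promoter held 4 matches of the pattern, of which 3 overlap between -40 and -29, and no TATAAA. Neither pattern overlapped the other in these promoters. The NF-κB pattern was present in 50.8% of all 32851 promoters of the table and TATAAA in 13.6%, so such matches are common and describe letters only. The AP-1 pattern TGANTCA, found in 7.81% of promoters, and the CRE pattern TGACGTCA, found in 1.79%, were in none of these 3 promoters. Promoters were on hand for 8 of the 10 members.

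The AU-rich stretch of Tnf is shown because it marks the message of the most abundant member. Within the 3′ untranslated region of the main Tnf transcript the pentamer ATTTA (capitals, read on the coding strand with overlaps counted) was densest in the 30 bases printed first. The stretch of the same length with most pentamers in Lta follows.

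Tnf, chr17:35199679-35199708, minus strand: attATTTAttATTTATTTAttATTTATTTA

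Lta, chr17:35203408-35203437, minus strand: tATTTAtggagagaaaagttaagttATTTA

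The 3′ untranslated region of Tnf, 764 bases long, held 8 pentamers, 5 of them in the printed window, and 5 matches to the nonamer TTATTTATT. Lta held 3 pentamers in 572 bases and 1 nonamer, Tnfsf9 held 2 pentamers in 253 bases and Tnfrsf1b 2 in 2324 bases. Tnfrsf9 held 2 in 1232 bases, Tnfsf12 held 1 in 590 and Tnfsf14 held 1 in 1019. Tnfrsf1a, Ltb and Tnfsf13b held none. Among 11287 protein-coding genes of at least 0.1 TPM in which a region could be read, 64.6% held a pentamer and 6.9% a nonamer. The density of pentamers in Tnf, 10.47 per 1000 bases, was above that of 98.9% of these genes, and those of Tnfsf9 (7.91) and Lta (5.24) were above 97.9% and 93.5%.

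The libraries held 37861150, 37136495 and 58889061 expected counts over genes in replicates 1, 2 and 3. Levels are given in TPM, the authors' abundance per effective length scaled to the same sum in each table. In the gene tables the 7SL RNA genes took 49.5% to 58.4% of TPM, and protein-coding genes of the nuclear genome 32.8%, 36.2% and 23.5% in replicates 1, 2 and 3. These shares depend on the quantification. In the second transcript tables the 7SL genes took 13.1% to 21.8% and those coding genes 15.3%, 18% and 7.03%. For that reason TPM rescaled to the same sum over those coding genes is given beside the deposited TPM where replicate 3 matters. Macrophage markers were present, with all 8 of the list at 1 TPM or more and sums of 9256, 8005 and 5389 TPM in replicates 1, 2 and 3. Of 8 T and NK cell markers 7 were under 0.1 TPM, Cd3e and Ncr1 had no count in any library, and the eighth, Cd4, stood at 23.7 ± 4.99 TPM (SD, n = 3). Of 5 B cell markers 4 were under 0.1 TPM, and Cd79b stood at 0.91 TPM. Of 5 neutrophil markers 3 were at 1 TPM or more, S100a9 at 22.9, S100a8 at 12.7 and Ngp at 2.8 TPM. Camp stood at 0.183 TPM and Ly6g had 0 counts, and the 5 summed to 33.9 to 44.3 TPM. The 5 dendritic cell markers summed to 1.33 to 1.58 TPM. The part of other cells in the levels below was not tested.

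A group of 5 members was abundant and the other 5 were low, with a gap of 55.7-fold between the means of the fifth and the sixth. Tnf was the highest, followed by Tnfsf9, Tnfrsf1b, Tnfsf12 and Tnfrsf1a. Tnfsf14, Ltb and Tnfsf13b had means under 1 TPM, and Tnfrsf9 and Lta had means under 0.1 TPM. Of all 22028 protein-coding genes 43.1% reached 1 TPM, against 5 of 10 members (50%), and 4 members (40%) but 5.2% of protein-coding genes reached 42.1 TPM, where the highest 10% of detected genes began. Of the 11 other ligands and 25 other receptors of the family, 0 reached that level. The members were chosen with earlier results of these data known, so their shares describe that choice and not the family. The median of the members was 21.4 TPM, a level between the fifth and sixth that no member had, and that of protein-coding genes 0.19 TPM.

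**Figure D1:**
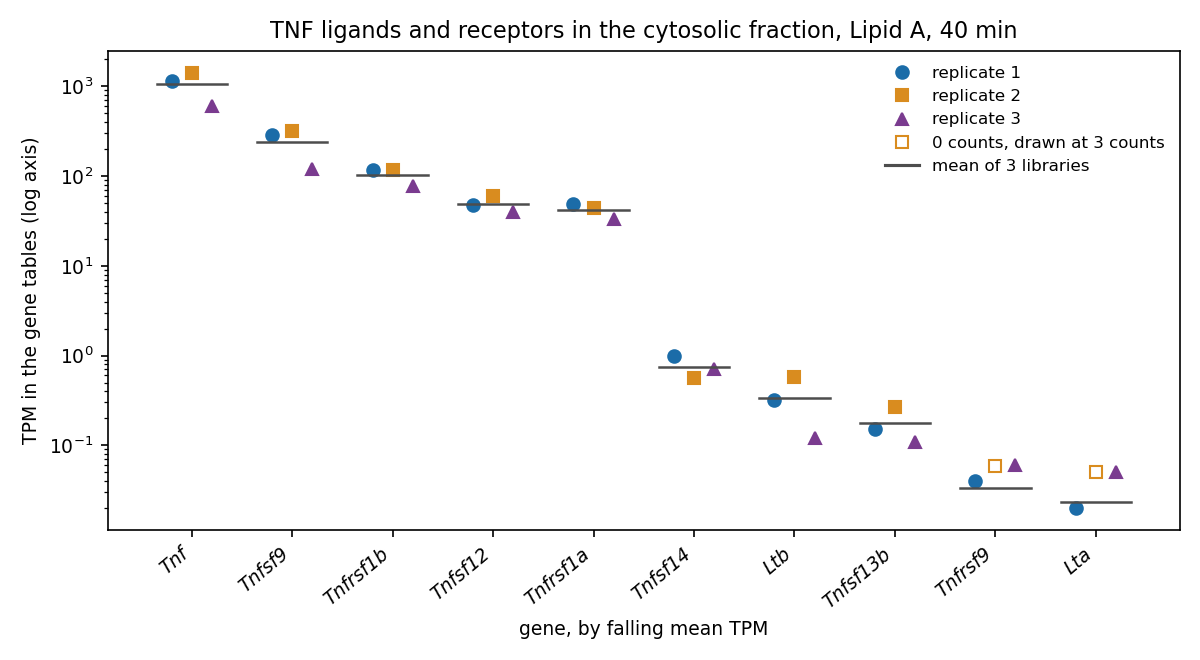
TPM of each member in the gene tables (vertical log axis) by gene, with 1 symbol per library and a bar at the mean of 3 libraries. The first 5 genes have means of 42 to 1065 TPM and 5 of 0.0233 to 0.753 TPM; open symbols are 0 counts, drawn at the TPM that 3 counts would give.

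Among the ligands, Tnf (ENSMUSG00000024401.14) had 1160, 1427 and 609 TPM in replicates 1, 2 and 3, from 89873, 103824 and 95423 expected counts. Its mean was 1065 ± 418 TPM (SD, n = 3), which placed it at number 22 of all protein-coding genes. Replicate 3 was the lowest library although it was the most deeply sequenced. On the rescaled TPM Tnf had 3541, 3946 and 2587, with the same library lowest.

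Tnfsf9 (ENSMUSG00000035678.8, chromosome 17, 57105325 to 57107757, plus strand) encodes the ligand of Tnfrsf9, a co-stimulatory receptor of T cells. It had 286, 317 and 121 TPM in replicates 1, 2 and 3, a mean of 241 ± 105 TPM and place 189 among protein-coding genes. As with Tnf, replicate 3 was lowest, and the rescaled TPM of 874, 875 and 514 kept that gap. Its first 618 bases overlap the lincRNA gene Gm11110 on the other strand, which had 12 to 18.01 counts in a library against 14269 to 17306 for Tnfsf9.

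Tnfsf12 (ENSMUSG00000097328.7, chromosome 11, 69686250 to 69695849, minus strand) encodes TWEAK, the ligand of Tnfrsf12a. It had 48.2, 60.4 and 39.6 TPM in replicates 1, 2 and 3, a mean of 49.4 ± 10.4 TPM. On the rescaled TPM the libraries had 147, 167 and 169, so replicate 3 was not the lowest there. All 9600 bases of Tnfsf12 lie inside Tnfsfm13, a protein-coding gene on the same strand that also spans Tnfsf13. Tnfsfm13 had 14.6, 13.2 and 9.76 TPM, and the counts of Tnfsf12 are uncertain to the extent that reads could be assigned to either. The antisense gene Tnfsf13os, which also overlaps Tnfsf12, had 0.97 to 2.98 TPM. Its receptor gene Tnfrsf12a had 2.16, 1.46 and 2.2 TPM, a mean of 1.94 ± 0.416 TPM.

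The other ligands were low. Tnfsf14 (ENSMUSG00000005824.7, chromosome 17, 57189492 to 57194177, minus strand), which encodes LIGHT, a ligand of Tnfrsf14 and of the lymphotoxin beta receptor, had 0.99, 0.56 and 0.71 TPM from 88, 47 and 128 expected counts. It lies 81734 bases from Tnfsf9, on the other strand, and its mean of 0.753 ± 0.218 TPM rests on 263 counts in all. Ltb (ENSMUSG00000024399.5) had 0.32, 0.58 and 0.12 TPM from 15, 21 and 13 counts, and Tnfsf13b (ENSMUSG00000031497.9, chromosome 8, 10006467 to 10039072, plus strand), which encodes the B cell survival factor BAFF, had 0.15, 0.27 and 0.11 TPM from 14, 11 and 12 counts. Such counts carry a wide counting error, and the intervals that the authors' tables give for Ltb run from 0.209 to 0.56, 0.373 to 0.876 and 0.0786 to 0.227 TPM.

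Lta (ENSMUSG00000024402.5) had 1, 0 and 7 expected counts in replicates 1, 2 and 3, or 0.02, 0 and 0.05 TPM. The count of 0 in replicate 2 allows up to 0.0504 TPM, if 3 counts are taken as its upper limit. That limit and the Poisson intervals below cover counting error only, and the folds are from the gene table. The second transcript table gave Lta 3, 1 and 13 estimated counts in replicates 1, 2 and 3. On the rescaled TPM Lta had 0.061, 0 and 0.213 in the gene table and 0.129, 0.0374 and 0.391 in the second, so its folds depend on the quantification. Per effective length, Tnf exceeded Lta 73625-fold in replicate 1 (exact 95% Poisson interval for the 1 count of Lta, 13214 to 2908048), at least 28299-fold in replicate 2 and 11161-fold in replicate 3 (5417 to 27760 for 7 counts). Tnf exceeded Ltb by 3606-, 2453- and 5176-fold in replicates 1, 2 and 3. Of the genes on either side of Tnf, Lta was thus close to the lower limit. Ltb was low but above the 0.0643, 0.0831 and 0.0271 TPM that 3 counts would give it in replicates 1, 2 and 3. In these libraries Tnf was among the 22 highest coding messages by mean TPM.

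Of the receptors, Tnfrsf1b (ENSMUSG00000028599.10, chromosome 4, 145213463 to 145246870, minus strand) had 116, 116 and 77.1 TPM in replicates 1, 2 and 3, a mean of 103 ± 22.5 TPM. Tnfrsf1a (ENSMUSG00000030341.17, chromosome 6, 125349362 to 125362484, plus strand) had 48.4, 44.2 and 33.3 TPM, a mean of 42 ± 7.76 TPM. Tnfrsf1b was the higher TNF receptor in every library, by 2.4-, 2.62- and 2.31-fold per length. Both were lowest in replicate 3 on the deposited TPM, but not on the rescaled scale, where Tnfrsf1b had 355, 321 and 328 and Tnfrsf1a 148, 122 and 142.

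Tnfrsf9 (ENSMUSG00000028965.13, chromosome 4, 150914562 to 150946102, plus strand), the receptor of the abundant ligand Tnfsf9, had 1, 0 and 6 expected counts, or 0.04, 0 and 0.06 TPM. The count of 0 in replicate 2 allows up to 0.0586 TPM. On the rescaled TPM Tnfrsf9 had 0.122, 0 and 0.255 in the gene table, which the folds below use. The second transcript table gave it 0.103, 0 and 0.516, so its folds depend on the quantification. Per effective length, Tnfsf9 exceeded Tnfrsf9 7713-fold in replicate 1 (exact 95% Poisson interval 1384 to 304642 for 1 count), at least 5399-fold in replicate 2 and 1984-fold in replicate 3 (912 to 5406 for 6 counts). Tnfrsf9 overlaps Camta1 on the other strand over 28781 bases. Camta1 had 78, 79 and 115 counts, and the strand of the counting is not given in the sources used here.

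In the order of levels, neighbours were said to differ beyond their spread when the difference of log2(TPM + 1) within a library had 1 sign in all 3 libraries and its mean exceeded 2 SD. By this rule 4 of 9 neighbouring pairs differed. Tnf exceeded Tnfsf9 by 2.17 ± 0.15, Tnfsf9 exceeded Tnfrsf1b by 1.13 ± 0.43, Tnfrsf1b exceeded Tnfsf12 by 1.04 ± 0.18 and Tnfrsf1a exceeded Tnfsf14 by 4.61 ± 0.27 (SD, n = 3). Tnfsf12 and Tnfrsf1a did not differ beyond their spread, with 0.00, 0.44 and 0.24 in replicates 1, 2 and 3, nor did any pair below Tnfsf14. The rule is a description. An exact sign-flip test over 3 libraries cannot go below p = 0.25. Counted per read rather than per length, Tnfrsf1b stood above Tnfsf9 and Tnfrsf1a above Tnfsf12.

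The levels were also set against Tnfrsf1a, the receptor that nearly every cell type carries, with a limma fit to the within-library differences of log2(TPM + 1) over 11471 protein-coding genes of at least 0.1 TPM. Of 7 members tested, 3 were higher than Tnfrsf1a and 3 were lower at an adjusted p under 0.05. Over all genes 7.99% were called higher and 88.1% lower, so nearly every gene was called in 1 direction or the other. Tnf was higher by 4.56, 4.98 and 4.15 in replicates 1, 2 and 3 and Tnfsf9 by 2.54, 2.81 and 1.83. Tnfrsf1b was higher by 1.27 ± 0.09 (SD, n = 3; standard error 0.15; limma adjusted p = 3.32e-18). Tnfsf14, Ltb and Tnfsf13b differed by -4.61 ± 0.27, -5.00 ± 0.20 and -5.18 ± 0.24, and these sizes depend on the added 1 TPM. Lta and Tnfrsf9 did not reach the minimum level. Tnfsf12 differed from Tnfrsf1a by 0.23 ± 0.22 (limma adjusted p = 0.103; 0.0156 to 0.33 over the alternatives that kept its sign). It was called higher in the second transcript table, by 0.28 (limma adjusted p = 0.0156), and lower per read, by -0.45 (limma adjusted p = 0.000712). In this fit limma took the spread as fully shared between genes, so these p-values are smaller than 3 libraries alone could give. All differences subtract the same Tnfrsf1a values, and whether that led to the sharing was not tested. On the rescaled TPM, where Tnfrsf1a was subtracted too, the sharing was partial. There limma used 9.8 degrees of freedom, of which 2 come from the libraries. It gave Tnfrsf1b an adjusted p of 1.44e-06 and Tnf 8.8e-10, which thus also lean on other genes.

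Variation between the libraries was described on TMM-normalized log2 CPM, counts relative to the size of their library with a correction for composition. Tnf had 11.21, 11.40 and 10.72 and Tnfsf9 had 8.78, 8.82 and 7.98 in replicates 1, 2 and 3. Tnfrsf1b had 9.21, 9.10 and 9.08, Tnfrsf1a 7.07, 6.84 and 6.98 and Tnfsf12 6.39, 6.60 and 6.53. Replicate 3 was thus below both other libraries for Tnf and Tnfsf9, with differences of -0.58 and -0.82 from the mean of the other two, while the receptors and Tnfsf12 stayed within 0.13 of their own means. Of 4291 protein-coding genes of at least 10 TPM, 1.63% lay further down in replicate 3 than Tnf and 0.466%, or 20 genes, further down than Tnfsf9. Those 20 began, from the lowest, with mt-Atp6, Cxcl10, Ly6a, Gbp5 and Marcksl1. The others were, in the same order, Mxd1, Ppp1r15a, Rnase4, Ly6e, Tgtp2, Icam1, Ifitm3, Gbp2, Gbp7, Ifit1, Ifi47, Gbp3, Il10, Calhm6 and Lsp1. These genes are named after their values were seen. In the same library the nuclear RNA Malat1 had 6919 CPM, against 1583 and 981 CPM in replicates 1 and 2, and the share of coding TPM was lowest. Their part in the difference was not tested. Tnfsf14 had 1.24, 0.34 and 1.21, with replicate 2 lowest, on 47 counts there.

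**Figure D2:**
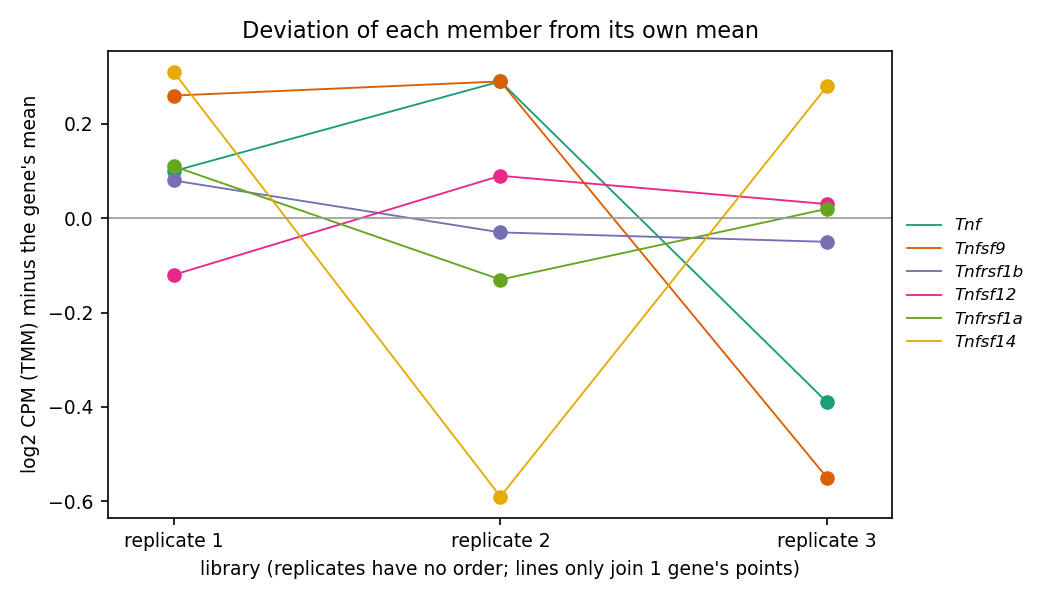
TMM-normalized log2 CPM minus the gene's own mean (vertical axis) in each library (horizontal axis), for the 6 members with enough counts; lines only join the points of 1 gene. Tnf and Tnfsf9 are lowest in replicate 3, at -0.39 and -0.55, and Tnfsf14 in replicate 2, at -0.59.

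A goodness-of-fit test in edgeR asked whether a gene varied more between the libraries than genes of like abundance. Of the 6 members with enough counts, 0 were called, against 1.71% (209) of 12250 genes. The smallest value belonged to Tnfsf9 (unadjusted p = 0.00818, edgeR adjusted p = 0.268), the 1 member with an unadjusted p under 0.05, beside 753 of all 12250 genes. Tnf followed with an unadjusted p of 0.105 in the same edgeR test. DESeq2 marked 83 genes as dispersion outliers and 0 members. These results do not show that the members varied as little as other genes, since the SD of Tnfsf9 (0.47 log2 units) was above that of 96.9% of genes of at least 10 TPM and the SD of Tnf (0.35) above 92.6%. The SD of Tnfrsf1b (0.07) was above 19% of them.

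The genes most like Tnf across the libraries were found by the summed absolute difference of centred log2 CPM over 3 libraries, among 4290 other protein-coding genes of at least 10 TPM. They were Rasgef1b, Idi1, S100a11, Rmnd5b and Rtp4, with distances of 0.025 to 0.057 log2 units, and Rasgef1b stood at 281 ± 109 TPM. Tnfsf9 came at place 137 with a distance of 0.316, and the receptors farther, Tnfrsf1b at place 1372. The genes most like Tnfrsf1b were Rabep1, Gas6, Psmc4, Fcer1g and Cd14, with distances of 0.003 to 0.016. With 3 libraries such likeness is a description of 3 numbers per gene.

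Transcripts were read in both transcript tables. Tnf-201 held nearly all of the Tnf TPM, and Tnf-202 at most 0.0111% in any library of either table. Tnfsf9, Tnfsf14 and Lta have 1 annotated transcript each. Tnfsf12-202 held 98.8% ± 0.72 of Tnfsf12 in the first table, with Tnfsf12-201 holding the rest. Tnfrsf1b-202, annotated as a target of nonsense-mediated decay, held 1.7%, 2.23% and 0.609% of Tnfrsf1b in replicates 1, 2 and 3. Tnfrsf1a-201 held 99.9% ± 0.148 of Tnfrsf1a in the first table, whereas the second put 92.9% there in replicate 2 and 6.75% on Tnfrsf1a-206. Both tables named the same main transcript for 8 of 10 members. The exceptions were Ltb and Tnfsf13b, with 49 and 37 counts in all. The 8 include Tnfrsf9 only by the order in which ties are read, since in the first table Tnfrsf9-207 and Tnfrsf9-202 had the same mean TPM, from 1 and 3.14 counts. Of the 37 counts of Tnfsf13b, 5.56 were on protein-coding transcripts and 31.4 on retained-intron, decay-target and other noncoding ones.

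The deposited quantifications were compared gene by gene, the gene table minus the second transcript table, on rescaled TPM with limma. Tnf had a rescaled TPM of 3358 ± 698 in the gene table and 3181 ± 617 in the second table, and Tnfsf9 754 ± 209 and 729 ± 188. The differences were small beside the spread between libraries. Lta and Tnfrsf9 did not reach the minimum level and were not tested. Of 8 members tested 0 were called, against 13.2% of 11653 genes, and 3 had an unadjusted p under 0.05 (4099 of all genes). These 3 were Tnf with 0.08 ± 0.03 log2 units (SD, n = 3; limma adjusted p = 0.0863), Tnfrsf1b with 0.07 ± 0.03 and Tnfrsf1a with 0.06 ± 0.03, each higher in the gene table in 3 of 3 libraries. No second tool was run on these values. On the TPM as deposited all 8 members were called higher in the gene table, where the median of all genes was itself shifted by 0.94 log2 units and 97.8% of genes were called. In replicates 1, 2 and 3 nuclear coding genes held 32.8%, 36.2% and 23.5% of the gene table's TPM. In the second table they held 15.3%, 18% and 7.03%.

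**Figure D3:**
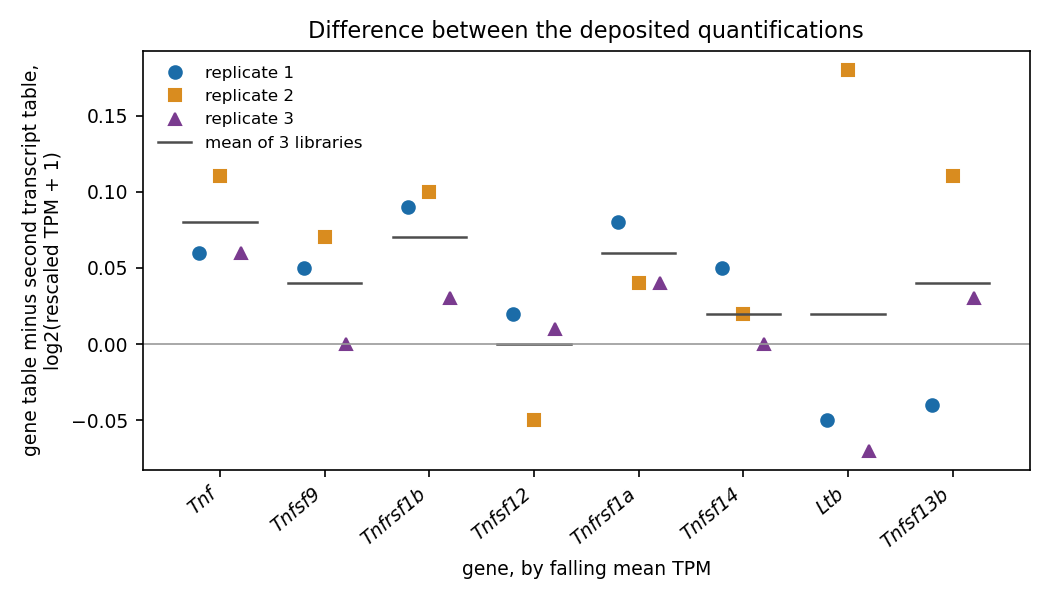
Difference of log2(rescaled TPM + 1) between the gene table and the second transcript table (vertical axis) for 8 members, with 1 symbol per library and a bar at the mean. The mean differences run from 0.00 to 0.08, and those of Ltb and Tnfsf13b spread most between libraries.

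Most other ligands of the family were low, while about as many other receptors as coding genes in general reached 1 TPM. Of 11 other ligands 1 reached 1 TPM (9.09%, against 43.1% of protein-coding genes), with a list median of 0.247 TPM. That gene was Tnfsf13, which encodes APRIL, with 12.3, 5.91 and 6.36 TPM, and it too lies in the Tnfsfm13 region. Tnfsf10, Tnfsf15, Tnfsf18 and Tnfsf8 followed with 0.82, 0.583, 0.373 and 0.263 TPM. Cd40lg, the T cell ligand of Cd40, had a count of 0 in all 3 libraries, and Fasl, the ligand of Fas, had 1 count in replicate 1 and 0 in the others.

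Of 25 other receptors 12 reached 1 TPM (48%), with a median of 0.64 TPM. Tnfrsf14, the receptor of Tnfsf14, had 36.9, 39 and 16.8 TPM. Ltbr, the lymphotoxin beta receptor, had 20.7, 19.3 and 14.6 TPM, although Lta was near the limit and Ltb had a mean of 0.34 TPM. Tnfrsf13b, a receptor for BAFF and APRIL, stood at 14.7 ± 6.12 TPM, Tnfrsf11a, which encodes RANK, at 14.1 ± 1.33 and Tnfrsf21 at 11.7 ± 1.35 TPM. Tnfrsf11b, Tnfrsf19 and Edar had no count in any library. Cd40 differed between the quantifications, with -1.36, -1.12 and -2.07 log2 units (gene table minus second table) in replicates 1, 2 and 3 (mean -1.51, limma adjusted p = 0.0222), so its level of 5.22 ± 1.46 TPM is uncertain.

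All 15 genes of receptor signalling reached 1 TPM (beside 43.1% of protein-coding genes), with a median of 5 TPM. The highest were Cflar, an inhibitor of caspase activation at death receptors, at 44.6 ± 6.33 TPM, the ubiquitin ligase gene Birc3 at 27.8 ± 7.2, Casp8 at 27.8 ± 8.18, the kinase gene Ripk1 at 20.7 ± 3.73 and Mlkl, the effector of necroptosis, at 9 ± 2.57 TPM. Birc3, Cflar and Ripk3, a kinase gene of necroptosis, differed between the quantifications, by -0.50 ± 0.12, -0.13 ± 0.04 and 0.28 ± 0.06 log2 units (gene table minus second table; SD, n = 3; limma adjusted p = 0.0135, 0.0357 and 0.0194).

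Of 8 genes for release from the membrane, 6 reached 1 TPM (75%, beside 43.1% of protein-coding genes). Adam17, which encodes the protease that sheds TNF, had 37.7, 28.1 and 23.9 TPM. Sppl2a, whose product cuts the membrane stub that is left, stood at 28.2 ± 6.72 TPM, Adam10 at 23.8 ± 4.68, Rhbdf2, which encodes iRhom2, the partner that ADAM17 needs in macrophages, at 10.4 ± 2 and Frmd8, whose product stabilises that complex, at 8.22 ± 2.23 TPM. Rhbdf1, the relative of Rhbdf2, stood at 0.493 ± 0.206 TPM, and Timp3, an inhibitor of ADAM17, had 0.06, 0.39 and 0.06 TPM.

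All 10 genes of message control reached 1 TPM (beside 43.1% of protein-coding genes), with a median of 25.3 TPM. Zfp36, which encodes tristetraprolin, a protein that binds AU-rich stretches such as that of Tnf and speeds decay, had 915, 1227 and 638 TPM. On the rescaled TPM it had 2792, 3393 and 2714, so replicate 3 lay close to replicate 1, whereas for Tnf it lay well below. Zfp36l1 and Zfp36l2, of the same family, stood at 182 ± 66.6 and 62.4 ± 14.6 TPM. Hnrnpd, which encodes the AU-rich binding protein AUF1, stood at 37.4 ± 5.46 and Zc3h12a, which encodes an endonuclease that cuts inflammatory messages, at 27.6 ± 8.2 TPM. Of the 54 genes of these 5 lists that could be tested for spread, 0 were called in edgeR, beside 1.71% of 12250 genes. An unadjusted p under 0.05 in the same test belonged to 2 of them (Tnfsf10 and Tnfsf13), beside 753 of all 12250 genes. In DESeq2 0 were outliers, beside 0.678% of all genes. Between the quantifications 9 of 54 were called (16.7%, beside 13.2% of all genes). Besides Cd40, Birc3, Cflar and Ripk3, these were Tnfsf13, Zfp36, Frmd8, Hnrnpd and Rc3h1. Their mean differences were 0.19, 0.13, -0.12, -0.11 and -0.15 log2 units (gene table minus second table). Over all 5 lists 44 of 69 genes reached 1 TPM, beside 43.1% of protein-coding genes. The lists were chosen with earlier results of these data known, so these counts describe the genes chosen.

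**Figure D4:**
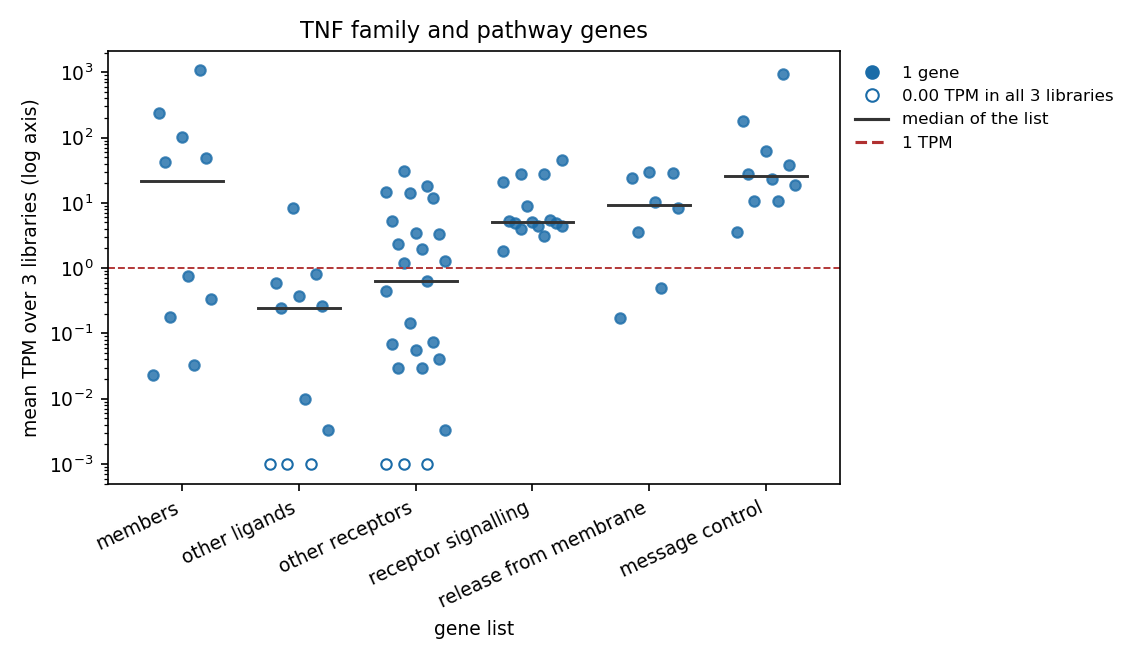
Mean TPM over 3 libraries (vertical log axis) of each gene in 6 lists, with a bar at the list's median and a dashed line at 1 TPM; open symbols are genes at 0.00 TPM in all 3 libraries. All 15 receptor signalling and 10 message control genes lie above the line, and 1 of 11 other ligands does.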

How the data were processed

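The files deposited for a library were a gene table and a pair of transcript tables, quantified by the authors against GENCODE M21 on mm10, per the notes deposited with them. The authors made the expected counts and TPM of the gene table and first transcript table from a transcriptome alignment, and the estimated counts and TPM of the second from the reads themselves, per the notes. The authors' TPM is per effective length with a fixed sum per table, per the file headers and values. Which tools made them, and whether strand was used, is not given in the sources used here, so overlapping genes are uncertain.

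Members were matched by symbol to 1 gene ID each. Spike-in features (0.0533% to 0.314% of counts) and 26248 numeric IDs with a count of 0 were left out. Counts were rounded for edgeR 4.0.16 (filterByExpr, TMM, trended dispersion, goodness-of-fit test with Benjamini-Hochberg adjustment) and DESeq2 1.42.0. Differences of log2(TPM + 1) were tested with limma 3.58.1 over protein-coding genes with a mean of at least 0.1 TPM and called at an adjusted p of 0.05. The added 1 TPM makes changes of low genes look smaller. The steps were tested on simulated data. There the differences of log2 levels were drawn independently for each gene, with no shared reference gene and no added TPM. How far the p-values against Tnfrsf1a are too small was thus not tested. Pairs of libraries lay farther apart than counting noise (chi-square per degree of freedom of 58.5 to 145), so each library was counted as 1 replicate.

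The members and the gene lists were chosen with earlier results of these data known. Named were all 10 members, the 5 highest genes of each list, other family genes of at least 10 TPM, the markers, and the 5 genes most like Tnf and Tnfrsf1b; other genes were named after their values were seen. Promoters are from RefSeq and transcript sequences from GENCODE M21. Alternatives were other size factors, filters, pseudocounts, scales and tables, and leaving out each library.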

Additional observations from a re-analysis of the deposited data

How the results depend on the processing

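No comparison between groups, paired or not, was possible because the 3 libraries form 1 group. The differences from Tnfrsf1a and between the quantifications were taken within each library. Most counts of members were within 1.5 times of the reported ones under the alternatives tried, and no member was called for spread in any of them. With no filter on low values 5 members in place of 3 were lower than Tnfrsf1a, the added ones being Lta and Tnfrsf9. On the TPM as deposited 8 members in place of 0 differed between the quantifications, with Tnfsf12 at 1.23 log2 units in place of 0.00. The median shift over all genes was 0.94, which includes low genes, whose differences the added 1 TPM makes smaller. The low members Tnfsf14, Ltb and Tnfsf13b had 0.42, 0.22 and 0.13. The members are thus not shown to be shifted beyond genes of like level. Per read in place of per length, 4 of 10 members kept their place in the order, and Tnfsf12 differed from Tnfrsf1a by -0.45 in place of 0.23. Without 1 library, 10 of 10 members kept their place. The mean TPM moved by over 1.5 times for Lta and Tnfrsf9 without replicate 3, to 0.01 in place of 0.0233 and to 0.02 in place of 0.0333, and for Ltb without replicate 2, to 0.22 in place of 0.34.

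Counts over all genes moved more. The spread test called 209 genes, but 115 among protein-coding genes alone, 59 without replicate 3, 114 without replicate 1 and 129 without replicate 2. The comparison of quantifications called 1544 genes, 406 higher and 1138 lower in the gene table, but 337 without replicate 3, 555 without replicate 1, 7 of 22028 with no filter, and 11193 higher and 209 lower on the TPM as deposited. The cause of these moves was not tested. With no filter 21596 genes in place of 11020 were called against Tnfrsf1a, of more genes tested. Depth limits Lta, Tnfrsf9, Ltb and Tnfsf13b, each with at most 49 counts in all.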
